A study of Mus musculus with 4 samples.

Results

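The genes described here carry a cell through mitosis: 49 named genes of mitotic entry, chromosome condensation, the kinetochore and its checkpoint, the spindle, anaphase and cytokinesis. They were taken by name, and a gene was measured where the array carried a probe set annotated to it and to no other gene. This held for 48 of the 49 genes, out of 18193 genes measured in all, and these 48 genes had 114 of 45037 probe sets. Ccnb1, which encodes cyclin B1, had no such probe set and was not analysed here.

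The values come from 4 mouse liver tumor samples, each on 1 Affymetrix mouse array. Liver progenitor cells driven by the HrasV12 oncogene and carrying a tet-off hairpin against p53 (shp53) had been transplanted into the livers of recipient mice. Without doxycycline the hairpin is on and p53 is off (0 days, 2 arrays), and doxycycline in the chow for 8 days switches the hairpin off, so that p53 returns (2 arrays). The study asked what p53 reactivation changes in these tumors. Both groups carry the oncogene and the hairpin construct. The labels give no doxycycline group without the hairpin and no further time point, so p53, doxycycline and time cannot be told apart. Whole tumors were profiled, so host cells are included, and a lower value cannot be divided between fewer dividing cells and less RNA in each. The labels do not say that the 2 samples of a group came from separate mice, so that a p-value here reflects the spread of these arrays alone, and that spread could be technical.

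Mitosis is driven by cyclin-dependent kinase 1 with its cyclins, and by the Polo and Aurora kinases. Condensed chromosomes attach to spindle microtubules through kinetochores, a checkpoint holds anaphase until all are attached, and the anaphase-promoting complex (APC/C) then releases the sister chromatids before the cell divides. Most of these genes are transcribed late in the cell cycle, through a CHR element and CCAAT boxes in their promoters. The DREAM complex, which p53 acts on by inducing p21, binds CHR elements and represses such genes. In adult liver few hepatocytes divide, so that RNA of these genes is low there and high in liver tumors.

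The promoters of 7 of these genes are printed here as examples, of the letters that most of the genes share and of genes that did not pass. Each stretch runs from 140 bases before the start of the transcript annotated in RefSeq to 30 bases from it, 5′ to 3′ on the strand of the gene, in the GRCm38.p6 build. Capitals mark TTTGAA or TTCGAA, the core letters of a CHR element, and CCAAT, the letters of a CCAAT box, on either strand (a CCAAT box on the other strand reads ATTGG, and TTTGAA reads TTCAAA). Cdk1 lies at chr10:69352883-69353052 (- strand), Bub1 at chr2:127831830-127831999 (- strand), Kif4 at chrX:100625925-100626094 (+ strand), Ube2c at chr2:164769789-164769958 (+ strand), Pttg1 at chr11:43425952-43426121 (- strand), Ect2 at chr3:27153825-27153994 (- strand) and Kif23 at chr9:61946770-61946939 (- strand).
Cdk1: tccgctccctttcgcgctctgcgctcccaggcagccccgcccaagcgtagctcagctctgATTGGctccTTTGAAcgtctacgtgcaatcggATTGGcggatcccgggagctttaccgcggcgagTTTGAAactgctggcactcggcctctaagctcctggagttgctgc
Bub1: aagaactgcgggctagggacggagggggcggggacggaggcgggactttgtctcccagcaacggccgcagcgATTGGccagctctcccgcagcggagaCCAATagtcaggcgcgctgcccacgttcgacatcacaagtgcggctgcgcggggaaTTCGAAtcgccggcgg
Kif4: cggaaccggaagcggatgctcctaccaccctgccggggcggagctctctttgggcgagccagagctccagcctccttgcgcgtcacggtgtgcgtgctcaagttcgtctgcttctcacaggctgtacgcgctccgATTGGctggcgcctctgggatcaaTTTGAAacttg
Ube2c: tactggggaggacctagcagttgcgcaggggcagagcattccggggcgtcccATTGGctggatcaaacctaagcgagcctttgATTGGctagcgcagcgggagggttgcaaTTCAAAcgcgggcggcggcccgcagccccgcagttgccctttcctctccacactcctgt
Pttg1: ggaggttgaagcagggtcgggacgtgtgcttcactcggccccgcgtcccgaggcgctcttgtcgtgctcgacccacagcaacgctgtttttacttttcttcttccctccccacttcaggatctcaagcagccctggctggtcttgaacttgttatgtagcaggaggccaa
Ect2: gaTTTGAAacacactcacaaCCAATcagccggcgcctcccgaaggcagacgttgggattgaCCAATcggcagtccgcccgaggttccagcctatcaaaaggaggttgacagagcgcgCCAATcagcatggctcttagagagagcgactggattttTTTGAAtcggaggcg
Kif23: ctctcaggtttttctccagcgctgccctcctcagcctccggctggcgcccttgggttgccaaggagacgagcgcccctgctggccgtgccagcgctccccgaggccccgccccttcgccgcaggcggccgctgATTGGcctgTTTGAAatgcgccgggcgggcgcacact
Ect2, Ube2c, Kif23, Bub1 and Cdk1 all fell and hold both motifs. Kif4 holds both and did not pass the test, and Pttg1, which did not pass it either, holds neither in this stretch. Of the 11 measured genes without TTTGAA or TTCGAA in a listed promoter, 10 fell, and of these 11 only Pttg1 is printed.

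RefSeq promoters of 300 bases (250 before the start and 50 after) were listed for 41 of the 49 genes, as 43 promoters. TTTGAA or TTCGAA lay in 31 of these 43 promoters (72.1%), against 19.2% of all 32851 promoters of the same length, 14.6% of those of DNA replication genes and 40.4% of those of other mitosis genes. CCAAT lay in 69.8% of them, against 37.4% of all promoters, 54.2% of those of DNA replication genes and 57.4% of those of other mitosis genes. Both motifs stood together in 62.8% of them, against 7.52%, 10.4% and 25.7% in the same sets. The match closest to the start began within 50 bases of it in 29 of the 31 promoters, with a median of 5 bases after the start. From 100 bases before the start to 50 after it, TTTGAA or TTCGAA lay in 69.8% of the 43 promoters. In this window it lay in 8.59% of all promoters, 6.25% of those of DNA replication genes and 28.7% of those of other mitosis genes. These shares describe letters only and show neither binding nor a cause.

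**Figure D1:**
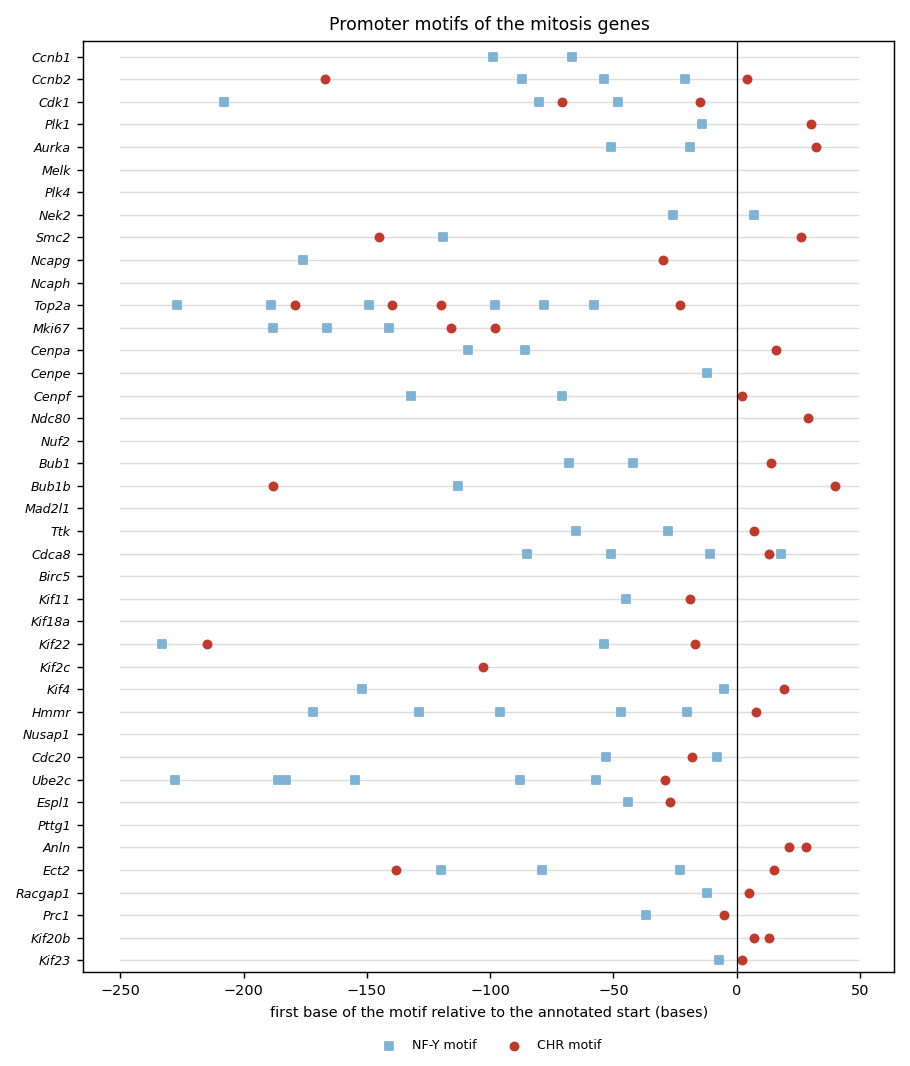
Positions of TTTGAA or TTCGAA and of CCAAT, on either strand, in a listed promoter of each of 41 mitosis genes (1 row a gene), as the distance in bases of the first letter from the annotated start. Red circles (CHR) gather at the start, within 50 bases of it in 29 of the 31 promoters that have one over all 43, and blue squares (NF-Y, the factor that binds CCAAT) lie mostly before it.

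Across the 48 measured genes, 42 fell with 8 days of doxycycline (87.5%), 0 rose and 6 did not pass the test, at an adjusted p under 0.05 in limma with Benjamini-Hochberg adjustment over all genes. Of all genes, 14.7% fell and 14% rose by the same rule. The 6 that did not pass were Foxm1, Kif2c, Kif4, Tpx2, Hmmr and Pttg1. The median change was -0.86 on the log2 scale, or 1.82-fold lower, with quartiles of -1.27 and -0.64, while the median over all genes was 0.02. A fall of at least 2-fold that passed the test was found for 17 of the genes, and for 2.55% of all genes. Both p53-on arrays lay below both p53-off arrays for 44 of the 48 genes, against 30.4% of all genes, and the groups overlapped for Foxm1, Kif4, Tpx2 and Pttg1. Among all genes ranked by change, 9 of the 48 lay in the lowest 1%, 30 in the lowest 5% and 40 in the lowest 10%. The standard errors (SE) of the 48 changes ran from 0.071 to 0.25.

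**Figure D2:**
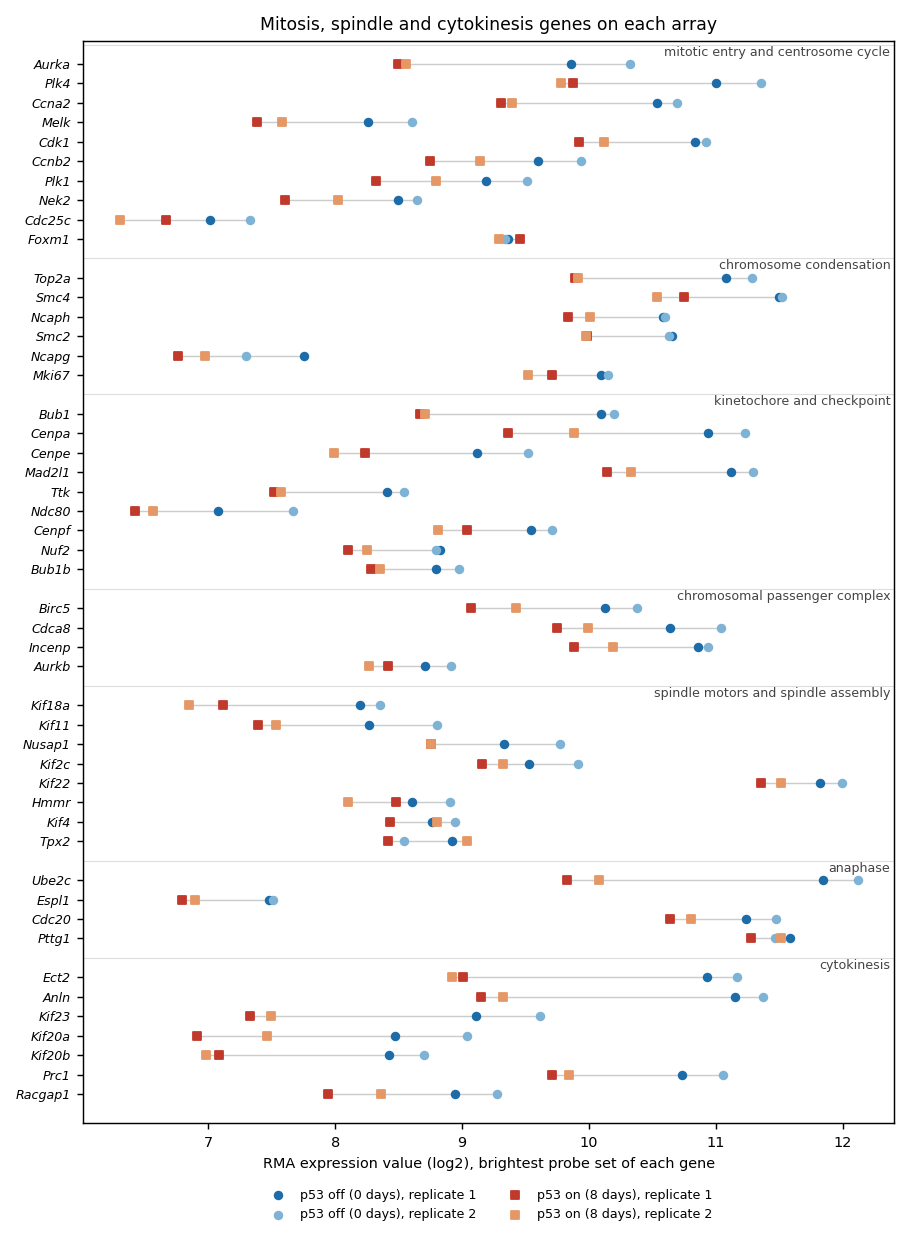
Log2 values of the 48 measured mitosis genes on the 4 arrays, a row per gene in order of step, with circles for p53-off and squares for p53-on arrays and a shade for each replicate. For 44 of the 48 genes both p53-on values lie to the left of both p53-off values, and for Foxm1, Kif4, Tpx2 and Pttg1 they overlap.

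The levels of the 48 genes also differed between the arrays of a group. The second p53-off array was above the first for 42 of the 48 genes, by a median of 0.21 on the log2 scale, whereas over all genes it was above in 48% and the median difference was -0.006. The second p53-on array was above the first for 35 of the 48 genes, by a median of 0.15, against 60.2% of all genes and a median of 0.04. The median SD within a group was 0.170 for the mitosis genes in p53-off and 0.126 in p53-on, and 0.062 and 0.073 over all genes. Without the second p53-off array 31 of the 48 genes fell in limma, beside 6.24% of all genes, and without the first 39 fell, beside 9.21% of all genes.

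The tissue and its makeup were read from marker genes. The list of 12 epithelial and tumor genes averaged 9.79 and 9.89 on the p53-off arrays and 9.21 and 9.21 on the p53-on arrays, and 7 of the 12 fell, led by Krt18 (a change of -1.61), while Epcam rose by 0.52. The 9 measured hepatocyte genes averaged 7.27 and 7.33 with p53 off and 7.54 and 7.22 with p53 on, and Ahsg fell (-0.45). The 7.54 includes Cyp2e1, which was at 9.71 on the first p53-on array and at 7.24 to 7.39 on the others, so that this array stood apart in it. Of 6 fetal liver and progenitor genes 1 fell (Sox9), and Afp was at 9.16, 9.15, 8.47 and 5.33, so that the second p53-on array stood apart in it. Macrophage genes averaged 10.73 and 10.75 with p53 off against 11.58 and 11.44 with p53 on, and 10 of 12 rose. Endothelial genes (9 of 10 rose) went from 8.52 and 8.49 to 9.07 and 9.46, and fibroblast genes (9 of 10 rose) from 11.26 and 11.01 to 12.1 and 12.1. Among T, B and NK cell genes 2 of 11 rose, and among neutrophil genes 1 of 8. The counts of these 2 lists are near the share of all genes that rose, 14%. The counts that fell among hepatocyte genes (1 of 9) and fetal liver and progenitor genes (1 of 6) are near the share of all genes that fell, 14.7%. The part of these cell types in the falls described here was not tested. The gene targeted by the hairpin had no probe set of its own and was not analysed here. Cdkn1a, which encodes p21 and is a direct p53 target, was at 11.68 and 11.45 with p53 off and at 12.99 and 13.01 with p53 on. The difference between 3′ and 5′ probe sets of a control is a sign of RNA degradation. For actin it was 0.395 and 0.262 with p53 off and 0.478 and 0.492 with p53 on. For Gapdh it was -0.108 and -0.143 with p53 off and -0.0556 and -0.0208 with p53 on. The part of RNA degradation was not tested.

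**Figure D3:**
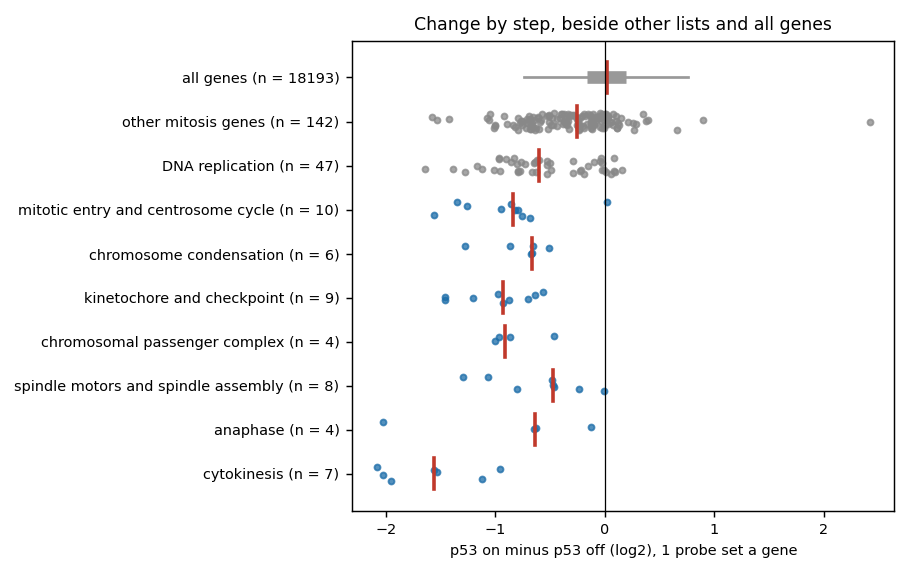
Change of each of the 48 mitosis genes (p53 on minus p53 off, log2 scale) by step of mitosis, with DNA replication genes, other mitosis genes and all genes for comparison. Points are genes, red lines are medians, and the thick and thin grey bars of all genes run from the 25th to the 75th and from the 5th to the 95th percentile. Every median of a step lies below 0, from -0.47 for the spindle genes to -1.56 for the cytokinesis genes, and the median of all genes lies at 0.02.

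All 7 cytokinesis genes fell, with a median change of -1.56, and Ect2, Anln and Kif23 were 3 of the 4 mitosis genes that fell most. Ect2, the exchange factor that activates RhoA at the division plane, was at 10.92 and 11.16 with p53 off and at 9.002 and 8.92 with p53 on. Both p53-on arrays were 1.92 or more below both p53-off arrays, the widest gap among the mitosis genes that fell. This was a 4.23-fold fall (-2.08, SE 0.104, limma adjusted p = 0.000479), which ranked 51 among the falls of all 18193 genes. Anln, the scaffold that ties actin and septins to the contractile ring, was at 11.15 and 11.37 and then at 9.15 and 9.32. It fell 4.07-fold (-2.02, SE 0.108, limma adjusted p = 0.00051). Kif23 and Racgap1 form centralspindlin, the complex that bundles microtubules at the midzone and recruits Ect2. Kif23 was at 9.11 and 9.62 with p53 off and at 7.33 and 7.496 with p53 on, a 3.87-fold fall (-1.95, SE 0.177, limma adjusted p = 0.00158). Racgap1 was at 8.94 and 9.27 and then at 7.95 and 8.36, with a smaller fall of 1.94-fold (-0.95, SE 0.176, limma adjusted p = 0.013). Its groups did not overlap, but without the second p53-off array its adjusted p was 0.0785.

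Among the other cytokinesis genes are a pair of kinesins of the same family, Kif20a, which carries the chromosomal passenger complex to the midzone, and Kif20b. Kif20a was at 8.47 and 9.04 with p53 off and at 6.91 and 7.46 with p53 on, and its 2.95-fold fall (-1.56) had the largest SE of all the mitosis genes, 0.250. Kif20b was at 8.42 and 8.70 and then at 7.08 and 6.98, and fell 2.89-fold (-1.53, SE 0.114). For both kinesins the p53-on arrays were at least 1.002 below the p53-off arrays. Prc1, which crosslinks antiparallel microtubules of the midzone, fell 2.17-fold (-1.12, SE 0.127). Some other probe sets of these genes did not pass: 1 of 3 for Racgap1 and 1 of 3 for Kif23 lay slightly above 0, at 0.01 and 0.13, and 2 of 4 for Kif20b did not pass.

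In anaphase the genes split. Ube2c, Cdc20 and Espl1 fell and Pttg1 did not pass the test. Ube2c encodes the ubiquitin-conjugating enzyme that starts chains for the APC/C. It was at 11.84 and 12.11 with p53 off and at 9.82 and 10.08 with p53 on. Both p53-on arrays were 1.76 or more below, and the fall of 4.07-fold (-2.03, SE 0.134, limma adjusted p = 0.00076) ranked 58 among all genes. Cdc20, the activator through which the checkpoint restrains the APC/C, was at 11.23 and 11.47 and then at 10.64 and 10.80. It fell 1.55-fold (-0.63, SE 0.112, limma adjusted p = 0.0117), and without the second p53-off array its adjusted p was 0.0709. Espl1 encodes separase, the protease that cuts cohesin, and Pttg1 encodes securin, its inhibitor. Espl1 was at 7.48 and 7.51 with p53 off and at 6.80 and 6.90 with p53 on, a 1.56-fold fall (-0.65, SE 0.0777, limma adjusted p = 0.00353). Pttg1 was at 11.58 and 11.46 and then at 11.27 and 11.51, so that its groups overlapped (-0.13, SE 0.108, limma adjusted p = 0.437). None of its 3 probe sets passed, with changes of -0.13, -0.27 and 0.02.

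For the kinetochore and the spindle checkpoint all 9 genes fell, with a median of -0.93. Bub1, a checkpoint kinase that also marks the inner centromere, was at 10.09 and 10.20 with p53 off and at 8.67 and 8.71 with p53 on. Its arrays were close within each group, and the 2.75-fold fall (-1.46, SE 0.0780) had a limma adjusted p of 0.00051. Cenpa, the histone H3 variant that defines the centromere, was at 10.94 and 11.22 and then at 9.36 and 9.88, and fell 2.75-fold (-1.46, SE 0.193, limma adjusted p = 0.00467). Cenpe, a kinesin that brings chromosomes to the metaphase plate, was at 9.12 and 9.52 and then at 8.23 and 7.99. It fell 2.30-fold (-1.204, SE 0.158, limma adjusted p = 0.00458). In all 3 of these genes the p53-on arrays were at least 0.88 below the p53-off arrays.

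The remaining kinetochore genes fell by less than 2-fold in their brightest probe sets. Mad2l1, which encodes the checkpoint protein Mad2, fell 1.96-fold (-0.97, SE 0.104), and Ttk, the kinase that starts checkpoint signalling, 1.91-fold (-0.93, SE 0.0821). Ttk was at 8.41 and 8.54 with p53 off and at 7.51 and 7.57 with p53 on. Ndc80 and Nuf2, partners in the complex that grips microtubules, fell 1.84-fold (-0.88, SE 0.196) and 1.56-fold (-0.64, SE 0.0844). By the brightest probe set the smallest fall was that of Bub1b, which encodes the checkpoint protein BubR1, at 1.48-fold (-0.57, SE 0.0918). The dimmer probe sets of Bub1b fell too, 2.08-fold (-1.06) and 1.42-fold (-0.50). Cenpf, a large protein of the outer kinetochore, was at 9.54 and 9.71 and then at 9.04 and 8.81, a 1.63-fold fall (-0.70, SE 0.111). Its other 2 probe sets were dimmer and did not pass, and the mean of all 3 gave -0.19 with an adjusted p of 0.0797. Without the second p53-off array the adjusted p of Cenpf was 0.0608 and that of Bub1b 0.0621. The dimmer probe set of Bub1 (-0.34), of Ttk (-0.15) and the dimmest of Cenpa (0.18) did not pass.

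The chromosomal passenger complex corrects faulty attachments and later guides cytokinesis, and all 4 of its genes fell, with a median of -0.92. Birc5, which encodes survivin, was at 10.13 and 10.38 with p53 off and at 9.07 and 9.42 with p53 on, a 2.01-fold fall (-1.01, SE 0.148, limma adjusted p = 0.0066). Cdca8, which encodes borealin, was at 10.64 and 11.04 and then at 9.75 and 9.99, and fell 1.96-fold (-0.97, SE 0.158, limma adjusted p = 0.00897). Incenp, the scaffold of the complex, was at 10.86 and 10.94 and then at 9.88 and 10.19, and fell 1.82-fold (-0.86, SE 0.118, limma adjusted p = 0.00528). The groups did not overlap in any of the 3. For Aurkb, the kinase of the complex, the fall was 1.38-fold (-0.47, SE 0.103, limma adjusted p = 0.0233). Its adjusted p was 0.137 without the second p53-off array and 0.0557 without the second p53-on array. Of the 5 probe sets of Incenp, 3 fell, and the other 2 changed by -0.04 each.

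At mitotic entry 9 of the 10 measured genes fell, with a median of -0.84. Aurka, the kinase that matures centrosomes and builds the spindle poles, was at 9.86 and 10.32 with p53 off and at 8.497 and 8.56 with p53 on. Both p53-on arrays were 1.30 or more below, a 2.95-fold fall (-1.56, SE 0.159, limma adjusted p = 0.00214). Its second probe set, with values under 6, did not pass (-0.08). Plk4, the kinase that licenses centriole duplication, was at 10.997 and 11.36 and then at 9.87 and 9.78, and fell 2.55-fold (-1.35, SE 0.132, limma adjusted p = 0.00193). Ccna2, which encodes cyclin A2, was at 10.53 and 10.69 and then at 9.31 and 9.39. It fell 2.40-fold (-1.26, SE 0.0890, limma adjusted p = 0.000873), and its second probe set fell too (-0.76).

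Cdk1, the kinase at the centre of mitotic entry, fell 1.81-fold (-0.86, SE 0.0953), and Ccnb2, one of its B-type cyclins, 1.77-fold (-0.82, SE 0.171). Melk, a kinase of dividing cells, fell 1.93-fold (-0.95, SE 0.140). Plk1, which promotes entry and later cytokinesis, fell 1.73-fold (-0.79, SE 0.188), and Cdc25c, a phosphatase that activates Cdk1, 1.61-fold (-0.68, SE 0.161). Nek2, a kinase that separates the centrosomes, was at 8.497 and 8.64 with p53 off and at 7.61 and 8.03 with p53 on, a 1.68-fold fall (-0.75, SE 0.151). Of its other 3 probe sets 1 fell (-0.68) and the dimmer 2 changed by 0.26 and -0.04. Averaged over its 4 probe sets Nek2 changed by -0.30 (limma adjusted p = 0.0602). Some of the other calls, and that of Nek2, were lost with an array left out. That leaves 1 array in a group, with less precision for all genes. A lost call therefore does not show that the array left out decided it. Without the second p53-off array the limma adjusted p was 0.106 for Ccnb2, 0.147 for Cdc25c, 0.156 for Plk1 and 0.109 for Nek2. Without the first it was 0.0516 for Plk1 and 0.0580 for Nek2.

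Foxm1, the transcription factor that drives many of these genes in late cell cycle, was at 9.36 and 9.34 with p53 off and at 9.45 and 9.29 with p53 on. The groups overlapped, and the change was 0.02 (SE 0.0860, limma adjusted p = 0.90). It was the only gene of the 48 with a change above 0, and this sign turned under median centring (-0.06), for the mean of its probe sets (-0.08) and without the first p53-on array (-0.06). None of its 4 probe sets passed. In the fit over all probe sets the one nearest the threshold was at 8.02 and 8.02 and then at 7.73 and 7.80 (-0.26, limma adjusted p = 0.0555).

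All 6 genes of chromosome condensation fell, with a median of -0.67. Top2a, the topoisomerase that untangles sister chromatids, was at 11.08 and 11.28 with p53 off and at 9.89 and 9.91 with p53 on. It fell 2.43-fold (-1.28, SE 0.0947, limma adjusted p = 0.000959). Its 2 other probe sets did not pass, at -0.30 and 0.15. Smc4 and Smc2 are the ATPases of condensin. Smc4 was at 11.49 and 11.52 and then at 10.74 and 10.54, and fell 1.82-fold (-0.87, SE 0.0945, limma adjusted p = 0.00259). Smc2 was at 10.65 and 10.63 and then at 9.99 and 9.97, and fell 1.58-fold (-0.66, SE 0.0708, limma adjusted p = 0.00245). Its arrays lay within 0.02 of each other in each group, and 2 of its 5 probe sets fell.

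Ncaph and Ncapg encode the other subunits of condensin I measured among the 48. Ncaph was at 10.58 and 10.60 with p53 off and at 9.84 and 10.005 with p53 on, and fell 1.59-fold (-0.67, SE 0.0872, limma adjusted p = 0.00443). Ncapg fell 1.58-fold (-0.66, SE 0.168, limma adjusted p = 0.0363), the largest adjusted p among the genes that passed. Its adjusted p was 0.103 without the first p53-off array and 0.0792 without the first p53-on array. Scaled to the hybridization spike-in controls, it was 0.0585. The dimmer probe set of Ncapg was at 7.12 and 7.37 with p53 off and at 6.12 and 6.06 with p53 on. This was a 2.22-fold fall (-1.15, limma adjusted p = 0.00178 in the fit over all probe sets). Mki67, which encodes the proliferation marker Ki-67 that coats mitotic chromosomes, fell 1.42-fold (-0.51, SE 0.0924, limma adjusted p = 0.0127). For Mki67 it was 0.0588 without the first p53-off array and 0.0913 without the second.

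Of the 8 spindle genes 4 fell, and the median was -0.47. Kif18a, a kinesin that damps chromosome movements at the plus ends of microtubules, was at 8.19 and 8.36 with p53 off and at 7.11 and 6.84 with p53 on. It fell 2.45-fold (-1.29, SE 0.119, limma adjusted p = 0.00161). Kif11, the kinesin that pushes the spindle poles apart, was at 8.26 and 8.80 and then at 7.39 and 7.54, and fell 2.10-fold (-1.07, SE 0.183, limma adjusted p = 0.0103). Nusap1, which stabilises spindle microtubules, was at 9.33 and 9.77 and then at 8.75 and 8.75. It fell 1.74-fold (-0.80, SE 0.151, limma adjusted p = 0.0142). In each of the 3 the groups did not overlap, and each also had a dim probe set that did not pass (0.07 for Kif18a, -0.06 for Kif11 and 0.04 for Nusap1). Kif22, a kinesin of chromosome arms, fell 1.38-fold (-0.47, SE 0.101, limma adjusted p = 0.0212). Its adjusted p was 0.132 without the second p53-off array and 0.0513 without the first p53-on array.

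The other 4 spindle genes did not pass the test. Kif2c, a kinesin that takes microtubules apart at centromeres, was at 9.53 and 9.91 with p53 off and at 9.16 and 9.32 with p53 on (-0.48, SE 0.144, limma adjusted p = 0.0589). Hmmr, which helps to focus the spindle poles, was at 8.60 and 8.91 and then at 8.48 and 8.10 (-0.47, SE 0.163, limma adjusted p = 0.0898). In both the p53-on arrays lay below the p53-off arrays, by 0.21 and 0.12. Kif2c passed in 5 of 13 alternatives, among them leaving out the first p53-off array (adjusted p = 0.0317), and Hmmr in 4 of 13, among them leaving out the first p53-on array (0.0190). Of the 5 probe sets of Hmmr 2 fell, and of the 4 of Kif2c none did. The dimmer probe sets of Kif2c changed by -0.02, -0.36 and 0.31. The first of these is its brightest without an x or s mark. Kif4, a kinesin of the chromosome arms and the midzone with a single probe set, was at 8.76 and 8.94 and then at 8.43 and 8.80. Its groups overlapped (-0.23, SE 0.142, limma adjusted p = 0.28), and without the second p53-on array its adjusted p was 0.0403.

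Tpx2, which activates Aurora A on the spindle, depended on the probe set. By its brightest probe set it was at 8.92 and 8.54 with p53 off and at 8.41 and 9.04 with p53 on, with no separation of the groups (-0.0043, SE 0.232, limma adjusted p = 0.994). The sign of this small change turned without the first p53-off array (0.19) and without the first p53-on array (0.31). Another probe set was at 8.84 and 8.28 and then at 8.62 and 8.98 (0.24), and also did not pass. The third was at 9.13 and 9.499 and then at 7.66 and 8.13, a 2.67-fold fall (-1.42, SE 0.193, limma adjusted p = 0.00603 in the fit over all probe sets). The fourth was at 7.18 and 7.21 and then at 6.62 and 6.88 (-0.45, limma adjusted p = 0.0314). So 2 of the 4 probe sets annotated to Tpx2 separated the groups and 2 did not, and the brightest carries the x mark of probe sets that can bind other transcripts. The values given for Ncaph, Aurkb, Incenp, Kif22, Kif2c and Cdc20 come from probe sets with the same mark, and those for Plk4, Nek2, Cdca8, Prc1 and Pttg1 from probe sets with the s mark, shared by several transcripts. With the brightest unmarked probe set in their place 41 of 47 genes fell.

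**Figure D4:**
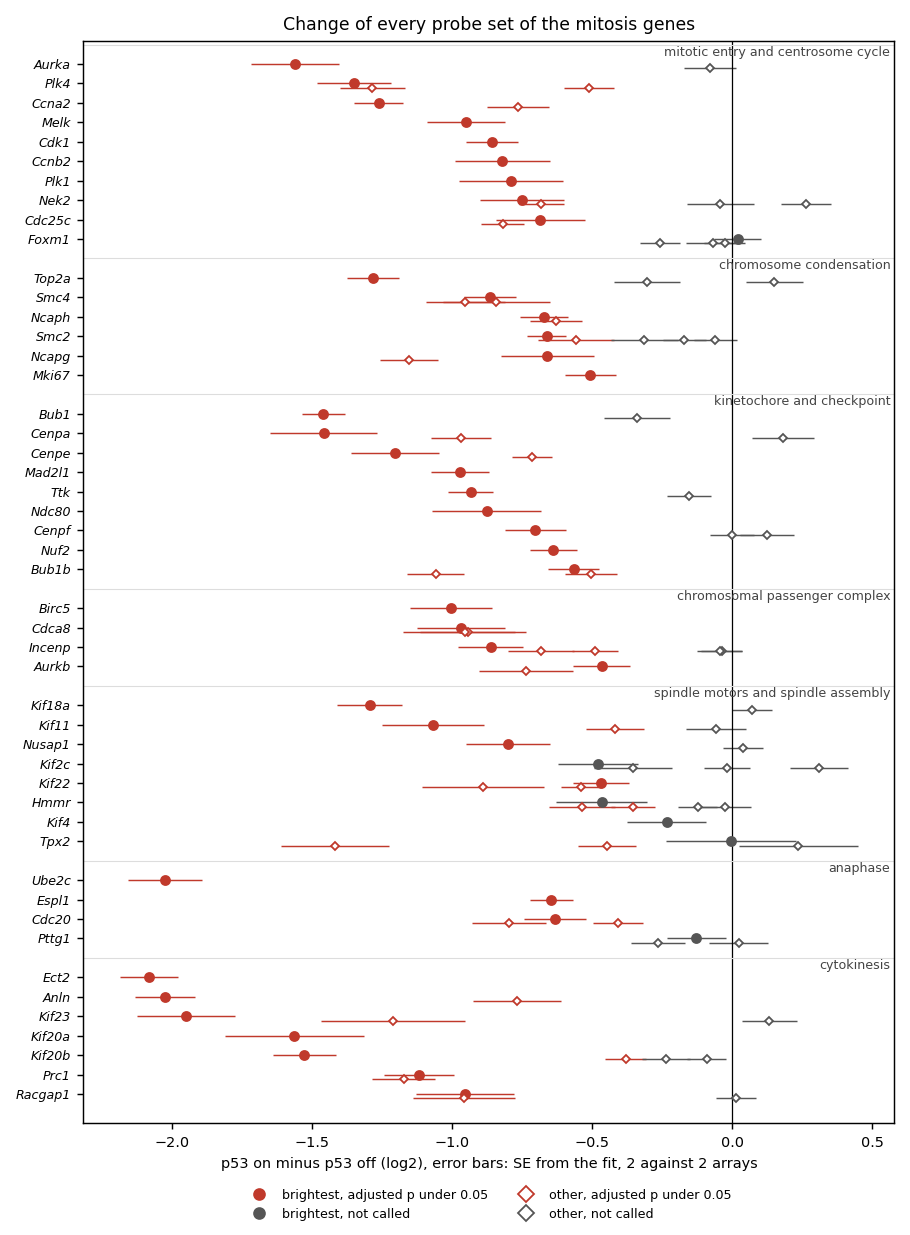
Change (p53 on minus p53 off, log2 scale) of each of the 114 probe sets of the mitosis genes, a row per gene, with SE bars, filled circles for the brightest probe set, open diamonds for others, red for adjusted p under 0.05 and grey for the rest. In 44 of the 48 genes at least 1 probe set fell, and no probe set rose.

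Over all probe sets of these genes 75 of 114 fell, 0 rose and 39 did not pass in limma, against 11.5% of all probe sets that fell and 11.3% that rose. Without the second p53-off array 38 fell, beside 4.69% of all probe sets. Of the 34 genes with several probe sets, 14 fell in every probe set, 17 in some and 3 in none. The share that fell differed with brightness. Of the 26 probe sets with a mean value under 6.5 on the log2 scale 5 fell, with a median change of -0.06, while 33 of 43 between 6.5 and 8.5 fell, with a median of -0.68. Of the 45 above 8.5, 37 fell, with a median of -0.82. Over all probe sets the same classes had 2.16%, 8.76% and 24.2% that fell. Across the 114 probe sets, many of which share a gene, the mean value and the change had a Pearson correlation of -0.518 and a Spearman correlation of -0.522, given as a description. The brightness of a probe set also depends on its probes.

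**Figure D5:**
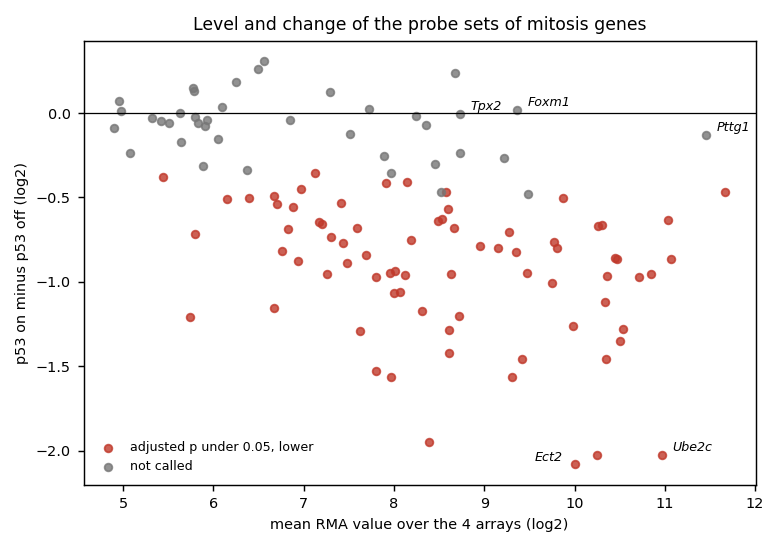
Mean log2 value over the 4 arrays against the change (p53 on minus p53 off, log2 scale) for the 114 probe sets of the mitosis genes, red where the adjusted p was under 0.05. Of the probe sets with a mean under 6.5 the median is -0.06 and 5 of 26 fell, down to -1.21 for one of Kif23, and of those above 8.5 the median is -0.82.

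Genes fell both with and without TTTGAA or TTCGAA in a listed promoter. Only these letters were searched, so a CHR element written with other letters would be missed. Of the 29 measured genes with TTTGAA or TTCGAA in a listed promoter, 26 fell, with a median change of -0.88, and Kif2c, Kif4 and Hmmr did not pass. Of the 11 without it, 10 fell, with a median of -0.95, and Pttg1 did not pass. Melk, Plk4, Nek2, Ncaph, Cenpe, Nuf2, Mad2l1, Birc5, Kif18a and Nusap1 fell without these letters in the window. A difference between these sets of genes was not tested. Ccna2, Cdc25c, Foxm1, Smc4, Aurkb, Incenp, Tpx2 and Kif20a had no listed promoter.

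Of 142 other measured genes of mitosis, 61 fell and 5 rose, with a median change of -0.26. Of all genes, 14.7% fell and 14% rose. The largest falls were those of Zwilch, a kinetochore protein of the checkpoint (-1.58, SE 0.146), Cep55, which starts abscission (-1.54, SE 0.0847), Cdca5, which encodes sororin and protects cohesion (-1.43, SE 0.177), Cdc25a, a phosphatase that activates cyclin-dependent kinases (-1.08, SE 0.137), Cks1b, a subunit that binds these kinases (-1.06, SE 0.119), and Arhgap11a, a RhoA regulator (-1.05, SE 0.0940). The 5 that rose were Psrc1, a microtubule-binding protein of the spindle (2.42, SE 0.0886), Rbl2, which encodes the p130 subunit of DREAM (0.90, SE 0.0733), Sept9 (0.66, SE 0.0784), Anapc16 (0.40, SE 0.102) and Cit (0.27, SE 0.0720). Psrc1 was at 8.85 and 8.71 with p53 off and at 11.1 and 11.3 with p53 on. Counts with an array left out are given in the closing section, beside those of all genes. The number that rose was 3 under median centring or for the mean of each gene's probe sets. It was 9 when scaled to the spike-in controls, where 34.7% of all genes were called and 10.4% were called lower.

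By group, 19 of 36 other kinetochore and centromere genes fell, and 14 of 34 other spindle and centrosome genes. So did 8 of 16 condensin and cohesin genes and 7 of 14 other entry regulators, against 14.7% of all genes. In the APC/C list 6 of 17 fell and 1 rose, with a median of -0.12. Its larger falls were in Ube2s (-0.89, SE 0.0826), which extends the chains that Ube2c starts, and Fbxo5, an APC/C inhibitor (-0.80, SE 0.102). Most subunits of the APC/C itself did not pass. Of 9 genes of the MuvB core, its E2F and pocket-protein partners and Mybl2, 1 fell (Lin9, -0.78, SE 0.100) and Rbl2 rose. These counts are near the shares of all genes, of which 14.7% fell and 14% rose. Among 47 measured DNA replication genes 29 fell and 0 rose, with a median of -0.60. These lists were chosen with results of these data known, and the differences between them and the 48 genes were not tested.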

How the data were processed

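Total RNA of 4 mouse liver tumor samples was profiled on 4 arrays, 2 per group. The deposited values are log2 values, 1 per probe set and array, made by the authors with RMA, per the submitters' processing notes (limma 3.14.4 is named there too). RMA corrects for background, normalizes by quantiles and summarises probes, without calling detection, so a dim probe set still has a value. The genome build is not given in the sources used here.

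For each gene the brightest probe set on average was used, among those of exactly 1 gene. Genes were fitted with lmFit and eBayes (limma 3.58.1, R 4.3.3) as p53 on minus p53 off, with no block, with Benjamini-Hochberg adjustment over all 18193 genes. All 45037 probe sets that are no control were fitted in the same way. The precision is limited by the 2 arrays per group. The script was tested on simulated data. Values are printed for each array for the 3 genes of each step that fell most, for genes that did not pass and for genes whose probe sets disagreed. Further mitosis genes named are the 6 largest falls and all rises. Other genes named, among them Cdkn1a, Ube2s, Fbxo5 and Lin9, were chosen after their values were seen. Motifs were searched with Python 3.11.15. The genes, lists and motifs were chosen with earlier results of these data known. The alternatives are given in the closing section. The labels do not say that same-numbered samples belong together, so the numbers were not taken to pair samples. The deviations of same-numbered samples had a correlation of -0.154 over all genes. With 2 arrays per group this cannot show whether samples are paired.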

Additional observations from a re-analysis of the deposited data

How the results depend on the processing

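Across 13 alternatives 28 of the 48 genes stayed lower in all, 14 lost the call in at least 1, and 0 of the 42 changed sign. The number of genes that fell was 38 (of 43 kept) without the dimmest 40% of genes, 41 to 44 under the other scalings, probe set choices and eBayes settings, and 31 to 42 with an array left out. The median change was -0.68 when each gene's probe sets were averaged, and -0.99 to -0.78 with an array left out. With an array left out, the genes called of all genes were 2228 to 5055 (5223 with all arrays), those called lower 1135 to 2711 (2673), other mitosis genes lower 28 to 60 (61) and higher 3 to 5 (5), probe sets of the 48 genes lower 38 to 72 (75) and higher 0 to 1 (0). The lowest counts of lower calls came without the second p53-off array. Other mitosis genes called higher were 3 under median centring, 3 with averaged probe sets and 9 with spike-in scaling, which also gave 2 higher probe sets. Spike-in scaling moved the median of all genes by 0.15, and the share of lower genes among those called from 51.2% to 30%, while median centring gave 62.1%. Signs turned for Foxm1 (-0.056 with median centring, -0.084 with averaged probe sets, -0.062 to 0.099 with an array left out, the lowest without the first p53-on array), Tpx2 (0.13 with spike-in scaling, 0.24 without probe sets marked x or s, -0.32 to 0.31 with an array left out, 0.19 and 0.31 of these without the first p53-off and the first p53-on array) and Pttg1 (0.0029 with spike-in scaling). With a replicate block 40 of the 48 genes fell: Cdc25c, Ncapg and Aurkb lost the call and Kif2c gained it. With the crossed pairing, added after seeing the data, 35 fell: Ccnb2, Plk1, Nek2, Ndc80, Kif22, Cdc20, Racgap1 and Kif20a lost it and Hmmr gained it. Kif2c also passed with median centring, with trend and robust eBayes and without the dimmest genes, and Hmmr with median centring and averaged probe sets. A group left with 1 array was taken to have the spread of the other group.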

Other observations

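The spacing of the promoter letters was counted as well, after the data had been seen. A pair of CCAAT boxes on the same strand lay 31 to 35 bases apart in 8 of the 43 promoters of the mitosis genes (18.6%), those of Aurka, Ccnb1, Ccnb2, Cdca8, Cdk1, Hmmr, Nek2 and Ube2c. All promoters held this arrangement in 0.922%, those of DNA replication genes in 4.17% and those of the other mitosis genes in 4.41%. A CCAAT box 25 to 40 bases before TTTGAA or TTCGAA lay in 14 of the 43 (32.6%), against 0.706% of all promoters, 2.08% for DNA replication genes and 5.88% for the other mitosis genes. It was found in the promoters of Ccnb2, Cdc20, Cdk1, Ect2, Hmmr, Kif11, Kif22, Mki67, Prc1, Top2a, Ttk and Ube2c. These counts describe letters only.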
